A study of Homo sapiens with 6 samples.

Results

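The enzymes of de novo purine synthesis were followed in A549 cells, a human line derived from a lung adenocarcinoma, whose RNA was sequenced in 3 libraries labelled siNC and 3 labelled siFOXD3. The members were chosen by gene symbol as the enzymes that build inosine monophosphate (IMP) and turn it into AMP or GMP: PPAT, GART, PFAS, PAICS, ADSL, ATIC, ADSS (now ADSS2), IMPDH1, IMPDH2 and GMPS. All 10 were found, each on 1 row of every table, among 17787 symbols. The siFOXD3 group is named for a small interfering RNA against the forkhead transcription factor FOXD3, and the siNC group, with the genotype label wild type, served as the control; siNC is not spelled out in the labels, and its dose, duration and siRNA sequences are not stated in the labels. The series title names FOXD3 as a repressor of WDR5 and SET, and the comparison asks what changes in the cells when FOXD3 is reduced. Values are FPKM, counts of sequenced fragments divided by the length of the transcript and by the size of the library.

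De novo synthesis builds the purine ring step by step on phosphoribosyl pyrophosphate (PRPP), with nitrogen from glutamine, glycine and aspartate and carbon from glycine, carbon dioxide and formyl-tetrahydrofolate. PPAT commits PRPP to the pathway, GART, PFAS, PAICS, ADSL and ATIC carry the ring to IMP, and IMP is then split between AMP (ADSS, then ADSL again) and GMP (IMPDH1 or IMPDH2, then GMPS). Proliferating cells draw on this route for RNA, DNA and energy carriers, and MYC, a factor that binds E-box sequences, is a known activator of several of its genes.

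The siNC tables gave FOXD3 itself at 0.152, 0.291 and 0.134 FPKM; among siFOXD3 libraries only replicate 2 listed it, at 0.0749 FPKM. These values lie near the detection limit, at an estimated 4 fragments or fewer in any library. Depth, estimated from the steps between low values, was 7590000 to 8640000 fragments per library. Although the labels' extraction text speaks of retinas, the 12 photoreceptor markers examined summed to at most 2.12 FPKM in any library, with 4 at 0 throughout, while the 6 epithelial markers looked at summed to 4481 FPKM or more. The 6 leukocyte markers summed to 9.79 to 10.3 FPKM in siNC and 4.48 to 4.69 FPKM in siFOXD3. The 3 that passed the filter on low values were all called lower, as were 38.7% of all genes tested. These were CD14 (2.92 ± 0.613 to 1.25 ± 0.304 FPKM, SD, n = 3 each), LAPTM5 (2.06 ± 0.241 to 0.210 ± 0.0691 FPKM) and CSF1R (4.57 ± 0.424 to 2.78 ± 0.264 FPKM). LAPTM5 passed the filter only through siNC, so a call of it could only be lower. PTPRC, a leukocyte marker named after its values were seen, was below the filter and overlapped between groups (0.227 ± 0.0713 and 0.194 ± 0.043 FPKM). The part of these markers in the results was not tested. No label states that the replicates are separate cultures. The p-values weigh the difference between groups against the spread of libraries within each group, and that spread may be technical only. In bulk RNA, a change in the share of cells that express a gene and a change in RNA per cell cannot be told apart.

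The promoters of PPAT and GART are shown because each is shared with a neighbouring gene transcribed the other way. ATIC is shown for its E-boxes and PFAS because its change was the largest among the enzymes. The windows run from 250 bases before to 50 bases after an annotated start (RefSeq, build GRCh38.p14), capitals mark the E-box CACGTG, and a window without capitals holds neither CACGTG nor the forkhead core GTAAACA on either strand. The files themselves are on hg19, so these coordinates serve only to place the sequences.
PPAT, chr4:56435566-56435865, minus strand: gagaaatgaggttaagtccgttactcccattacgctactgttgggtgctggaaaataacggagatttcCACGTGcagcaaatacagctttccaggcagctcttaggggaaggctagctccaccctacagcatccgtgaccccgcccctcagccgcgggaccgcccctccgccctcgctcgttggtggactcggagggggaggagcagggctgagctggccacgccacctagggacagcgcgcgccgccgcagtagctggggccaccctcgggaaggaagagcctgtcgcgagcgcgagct
GART, chr21:33542843-33543142, minus strand: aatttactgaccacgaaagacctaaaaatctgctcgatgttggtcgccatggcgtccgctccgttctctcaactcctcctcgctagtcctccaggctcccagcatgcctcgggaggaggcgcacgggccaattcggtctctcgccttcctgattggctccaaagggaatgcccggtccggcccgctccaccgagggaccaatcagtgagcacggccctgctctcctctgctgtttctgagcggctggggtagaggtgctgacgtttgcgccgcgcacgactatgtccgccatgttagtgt
ATIC, chr2:215311809-215312108, plus strand: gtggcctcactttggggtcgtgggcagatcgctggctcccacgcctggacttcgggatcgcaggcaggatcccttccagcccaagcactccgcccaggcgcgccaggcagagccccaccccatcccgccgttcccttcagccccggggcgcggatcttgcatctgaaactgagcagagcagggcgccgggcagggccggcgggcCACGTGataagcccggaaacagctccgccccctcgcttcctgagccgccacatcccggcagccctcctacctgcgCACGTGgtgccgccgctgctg
PFAS, chr17:8249039-8249338, plus strand: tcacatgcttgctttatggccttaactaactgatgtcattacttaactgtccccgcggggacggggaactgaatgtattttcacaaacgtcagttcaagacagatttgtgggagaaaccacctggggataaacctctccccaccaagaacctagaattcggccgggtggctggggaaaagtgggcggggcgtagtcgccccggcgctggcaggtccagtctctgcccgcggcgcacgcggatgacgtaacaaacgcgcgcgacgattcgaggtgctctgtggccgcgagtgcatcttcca

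The PPAT start and the nearest annotated PAICS start lie 137 bases apart on opposite strands. Their windows share 236 bases that include the single E-box, 182 bases before the PPAT start and 40 bases after this PAICS start. Other PAICS starts, 645 and 25108 bases from the PPAT start, have windows that share no bases with that of PPAT. The nearest annotated starts of GART and SON, which encodes a nuclear splicing cofactor, lie 146 bases apart in the same head-to-head arrangement. ATIC held an E-box 46 bases before its start and another 29 bases after it. Windows were found for 8 of the 10 enzymes (not ADSL or IMPDH2), and 3 of these 8 (PPAT, PAICS and ATIC) held CACGTG, against 8.77% of the 27305 genes in the table. PPAT and PAICS hold the same site, so these 3 are not separate matches. A gene counted if any of its windows held the letters. None of the 8 held GTAAACA, which 4.19% of all genes did. A match is a sequence only and says nothing of a factor's binding, and no match says only that these letters are not in the window.

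In siNC the enzymes spanned a wide range of levels, from IMPDH2 at 163 FPKM and ATIC at 149 FPKM down to PPAT at 7.89 and PFAS at 4.98 FPKM (means of 3). In this order GART and IMPDH1 were the only neighbours whose libraries overlapped. IMPDH2 and ATIC lay above 95% of the genes tested, at 96.2% and 95.8%, whereas PPAT lay above 38.6% and PFAS above 25.7%. In siFOXD3 IMPDH2 and ATIC remained at the top and PPAT and PFAS at the bottom. PAICS moved from place 5 to place 3, GART moved from place 6 to place 8, and the libraries of GMPS and ADSS, and of ADSL and GART, overlapped. Added over all 10 genes, the level was 674, 665 and 671 FPKM in siNC and 778, 792 and 764 FPKM in siFOXD3, a ratio of 1.16, and this sum is carried mostly by the most abundant members.

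Of the 10 enzymes, all of which passed the filter on low values, 6 were called higher in siFOXD3, 1 lower and 3 neither way (limma with Benjamini-Hochberg adjustment over 12555 genes, adjusted p under 0.05). Over all genes tested 27.2% were called higher and 38.7% lower, 65.9% in either direction, so a call by itself was common in this comparison. The median log2 fold change of the enzymes was 0.28, beside -0.08 over all genes. The siFOXD3 libraries lay above the siNC libraries without overlap for 7 enzymes and below for 1, where 29.6% of all genes lay above and 41.1% below, 70.7% together. A stricter test, against a fold of 1.2 and chosen after seeing the data, called 5 enzymes higher and 0 lower, beside 12.9% and 21.3% of all genes. The exact permutation test of 3 libraries against 3 cannot give a two-sided p below 0.1, which is what each of these 8 gave.

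**Figure D1:**
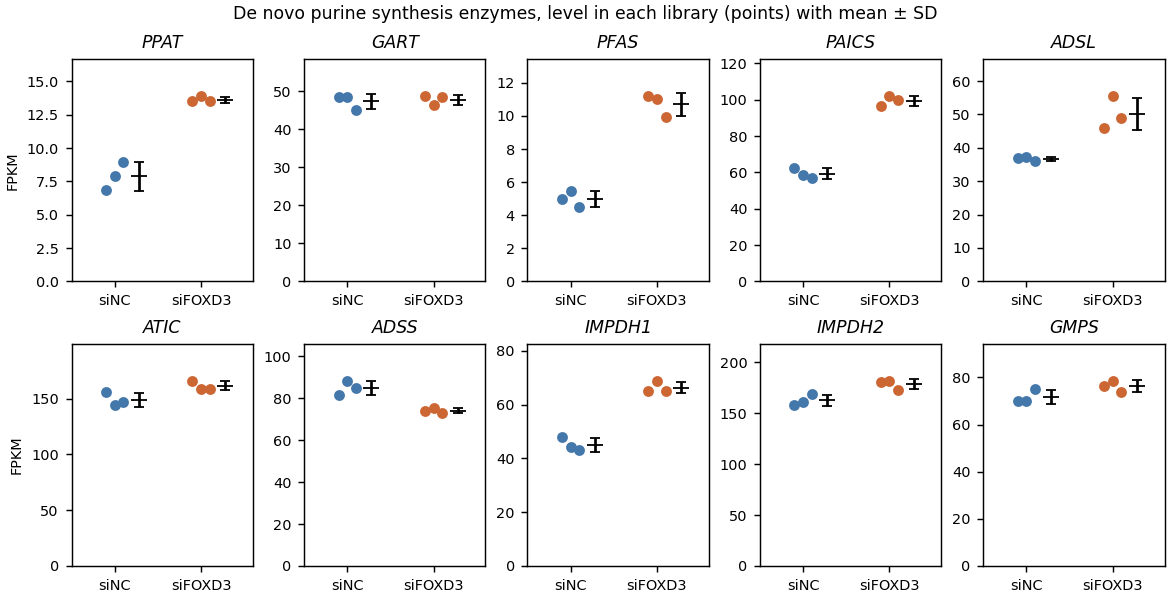
FPKM of each enzyme (vertical axis, from 0, own scale per panel) in the 3 siNC libraries (blue points) and the 3 siFOXD3 libraries (orange points), with the mean and SD in black. PPAT, PFAS, PAICS, ADSL and IMPDH1 separate clearly, GART and GMPS overlap, and ADSS is the enzyme whose siFOXD3 points all lie below siNC.

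The entry to the pathway was higher. PPAT, the amidotransferase that commits PRPP to purine synthesis, was at 6.82, 7.89 and 8.98 FPKM in siNC and at 13.5, 13.9 and 13.5 FPKM in siFOXD3. The siNC libraries were spread more widely than the siFOXD3 libraries, and every siFOXD3 value exceeded every siNC value. PPAT rose 1.73 times, by 0.73 ± 0.09 on the log2(FPKM + 1) scale (SE; Benjamini-Hochberg adjusted p from limma = 5.34e-05), and 5.41% of the genes tested changed at least as far upward. Its siNC values rest on an estimated 192 to 254 fragments per library, for which counting alone gives an SD of 6.27% to 7.22%.

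GART, which carries the glycine-adding, formyl-transferring and ring-closing activities of the early steps, was not called. It was at 48.6, 48.4 and 45.1 FPKM in siNC and at 48.7, 46.3 and 48.4 FPKM in siFOXD3, and the libraries of both groups were interleaved. The log2 fold change was 0.01, with a 95% interval from -0.10 to 0.13 (limma, Benjamini-Hochberg adjusted p = 0.841), and its sign turned with the scaling, to -0.05 with quantile normalization.

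PFAS, the glutamine-using synthase that follows, changed most. It was the least abundant enzyme, at 5.0, 5.45 and 4.50 FPKM in siNC, and it was at 11.2, 11.0 and 9.91 FPKM in siFOXD3. The lowest siFOXD3 library was well above the highest siNC library. PFAS rose 2.15 times, by 0.97 ± 0.09 on the log2 scale (SE; Benjamini-Hochberg adjusted p from limma = 5.41e-06), and 2.20% of genes tested rose at least as much. The value was 0.65 with a pseudocount of 5 in place of 1, and PAICS, at 0.70, then changed more.

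PAICS, which adds carbon dioxide and then aspartate, was at 62.5, 58.8 and 56.8 FPKM in siNC and at 96.5, 102 and 100.1 FPKM in siFOXD3. Both groups were tight, and they did not overlap. It rose 1.67 times, by 0.74 ± 0.05 on the log2 scale (SE; Benjamini-Hochberg adjusted p from limma = 1.08e-06). Of the enzymes it gained most in absolute level, 40.1 FPKM. GENCODE lists 7 pseudogenes named after PAICS and 2 named after PPAT, whose reads could be shared with the genes.

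ADSL, the lyase used once on the way to IMP and again on the way to AMP, was at 37.1, 37.2 and 36.1 FPKM in siNC and at 45.9, 55.5 and 49.0 FPKM in siFOXD3. Here the siFOXD3 libraries were the more scattered, with replicate 2 the highest. ADSL rose 1.36 times, by 0.43 ± 0.07 on the log2 scale (SE; Benjamini-Hochberg adjusted p from limma = 0.000285). ATIC, which adds the last carbon and closes the ring to give IMP, was at 156, 144 and 147 FPKM in siNC and at 166, 159 and 159 FPKM in siFOXD3. Its groups did not overlap, but the gap was small beside the spread within siNC. The log2 fold change of 0.11 did not pass the test (limma, Benjamini-Hochberg adjusted p = 0.0585), and it was -0.01 with quantile normalization and 0.23 with median-of-ratios scaling (adjusted p = 0.00309). Without siNC replicate 1 it was 0.14 and called (adjusted p = 0.00837).

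**Figure D2:**
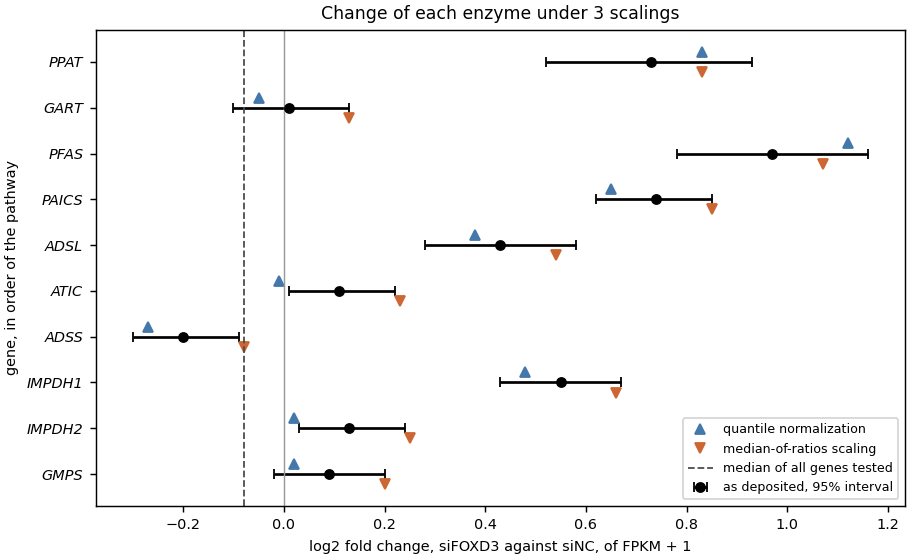
Log2 fold change of FPKM + 1 in siFOXD3 against siNC (horizontal axis) for each enzyme in the order of the pathway, as deposited with 95% intervals (black), with quantile normalization (blue) and with median-of-ratios scaling (orange). PFAS, PAICS, PPAT, IMPDH1 and ADSL stay to the right of 0 under all 3, whereas GART, ATIC, IMPDH2 and GMPS lie within 0.25 of 0 and ADSS is negative.

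On the AMP branch ADSS, which joins IMP to aspartate, was at 81.6, 88.4 and 85.0 FPKM in siNC and at 74.1, 75.2 and 73.0 FPKM in siFOXD3. It was the one enzyme with all siFOXD3 libraries below siNC. ADSS fell to 0.872 of its siNC level, by 0.20 ± 0.05 on the log2 scale (SE; Benjamini-Hochberg adjusted p from limma = 0.00468). Of the genes tested, 40.4% changed at least as far downward. Relative to the median of all genes the change was -0.12, and with median-of-ratios scaling ADSS was at -0.08 and not called (adjusted p = 0.180). Its isozyme ADSSL1, known from muscle, was at 1.55, 0.932 and 1.65 FPKM in siNC and between 0.598 and 0.655 FPKM in siFOXD3, below the filter on low values.

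On the GMP branch the isozymes of IMP dehydrogenase, the step that limits guanine nucleotide supply, changed unequally. IMPDH1, known as the more constitutive isozyme, was at 47.9, 44.3 and 43.0 FPKM in siNC and at 65.1, 68.9 and 65.1 FPKM in siFOXD3. It rose 1.47 times, by 0.55 ± 0.06 on the log2 scale (SE; Benjamini-Hochberg adjusted p from limma = 1.24e-05), with no overlap between groups. IMPDH2, known as the isozyme of proliferating cells and the most abundant enzyme here, was at 158, 161 and 169 FPKM in siNC and at 181, 182 and 173 FPKM in siFOXD3. Those groups came close to each other. IMPDH2 rose by 0.13 ± 0.05 on the log2 scale (SE; Benjamini-Hochberg adjusted p from limma = 0.0250), a call that was lost with quantile normalization (0.02, adjusted p = 0.775) and without siNC replicate 2, siFOXD3 replicate 1 or siFOXD3 replicate 2 (adjusted p = 0.0613, 0.0931 and 0.0947). GENCODE lists 7 pseudogenes named after IMPDH1, which can share its reads. GMPS, which aminates XMP to GMP, was at 70.0, 69.8 and 75.1 FPKM in siNC and at 76.5, 78.6 and 73.7 FPKM in siFOXD3. With overlapping groups its log2 fold change was 0.09, with a 95% interval from -0.02 to 0.20 (limma, Benjamini-Hochberg adjusted p = 0.146), and it reached 0.20 with median-of-ratios scaling (adjusted p = 0.00588).

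Ratios within a library do not depend on a single scaling factor per library, and they were compared for 3 pairs. IMPDH2 was 3.30, 3.63 and 3.93 times as abundant as IMPDH1 in siNC and 2.78, 2.64 and 2.66 times in siFOXD3. Every siFOXD3 ratio was below every siNC ratio. The difference was -0.42 on the log2 scale (two-sided exact permutation p = 0.1, the smallest possible, and 0.15 adjusted over the 3 pairs), so the test could not pass 0.05.

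The head-to-head pairs shown by their promoters gave unlike pictures. PAICS exceeded PPAT 9.17, 7.46 and 6.33 times in siNC and 7.16, 7.31 and 7.41 times in siFOXD3. The siFOXD3 ratios fell inside the siNC range, and the difference was -0.05 (exact permutation p = 0.7), with either sign depending on the library left out (-0.18 to 0.09). GART exceeded SON 1.69, 1.80 and 1.78 times in siNC and 1.35, 1.30 and 1.38 times in siFOXD3, without overlap. SON rose from 26.9 ± 1.71 to 35.6 ± 0.449 FPKM (SD, n = 3 each), by 0.39 on the log2 scale (limma, Benjamini-Hochberg adjusted p = 0.000200), while GART was not called. The difference in the log2 ratio was -0.39 (two-sided exact permutation p = 0.1, and 0.15 adjusted). An annotated PAICS start lies inside PPAT, 25108 bases from the PPAT start, and no source used here gives the handling of strand, so reads of overlapping transcripts could be credited to either gene.

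**Figure D3:**
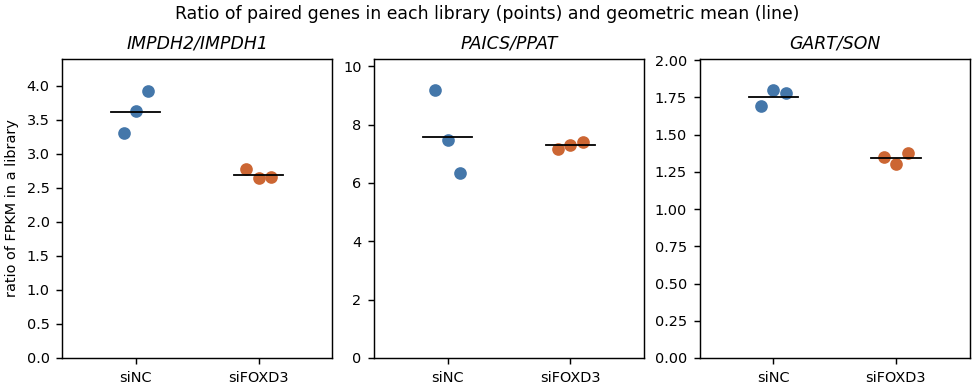
Ratio of FPKM of paired genes within each library (vertical axis, from 0), for siNC (blue) and siFOXD3 (orange), with the geometric mean as a line. IMPDH2/IMPDH1 and GART/SON are lower in every siFOXD3 library, and PAICS/PPAT in siFOXD3 (7.16 to 7.41) lies within the siNC range (6.33 to 9.17).

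Around the pathway, 1 of the 4 tested genes of PRPP supply was called higher and none lower, beside 27.2% and 38.7% of all genes. This count is not a result about PRPP supply. PRPS1, which makes PRPP, was at 43.6, 34.7 and 28.6 FPKM in siNC and at 76.2, 79.3 and 77.5 FPKM in siFOXD3. The siNC libraries were widely spread but all lay below siFOXD3, and PRPS1 rose 2.18 times (log2 fold change 1.12, limma, Benjamini-Hochberg adjusted p = 1.54e-05). Of the 4 tested genes of this list of 5, the other 3 were not called; its isozyme PRPS2, named after its values were seen, was at 40.4 ± 3.72 and 42.0 ± 1.59 FPKM. The count was 2 without siNC replicate 3 and with quantile or median-of-ratios scaling.

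Of 14 tested genes of 15 in the list of folate one-carbon supply, 8 were called higher and 5 lower, beside 27.2% and 38.7% of all genes, with a median log2 fold change of 0.25. The 5 include ALDH1L1, named after its values were seen, which passed the filter only through siNC. With 1 FPKM asked of all 6 libraries, 4 were called lower. MTHFD1, the cytosolic enzyme that makes formyl-tetrahydrofolate, was at 37.5, 30.9 and 33.1 FPKM in siNC and at 66.4, 69.4 and 67.4 FPKM in siFOXD3 (log2 fold change 0.99, adjusted p = 1.01e-06). MTHFD2, a mitochondrial enzyme of the same list, was at 189, 203 and 186 FPKM in siNC and at 93.5, 92.7 and 94.6 FPKM in siFOXD3 (-1.03, adjusted p = 7.63e-08). These are opposite changes of about equal size on the log2 scale, with no overlap in either gene.

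SHMT2, the mitochondrial serine hydroxymethyltransferase, fell like MTHFD2, from 176 ± 2.92 to 93.3 ± 1.46 FPKM (-0.91, limma, Benjamini-Hochberg adjusted p = 8.30e-08), and the reduced folate carrier SLC19A1 rose from 7.71 ± 1.09 to 13.4 ± 0.289 FPKM (0.73). Named after their values were seen, the mitochondrial MTHFD1L fell (-0.35), while the cytosolic SHMT1 (0.25) and the mitochondrial folate carrier SLC25A32 (0.66) rose. The fall was therefore not shared by every mitochondrial gene of the list, in which GCSH, of the glycine cleavage system and also named after its values were seen, rose (0.36).

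**Figure D4:**
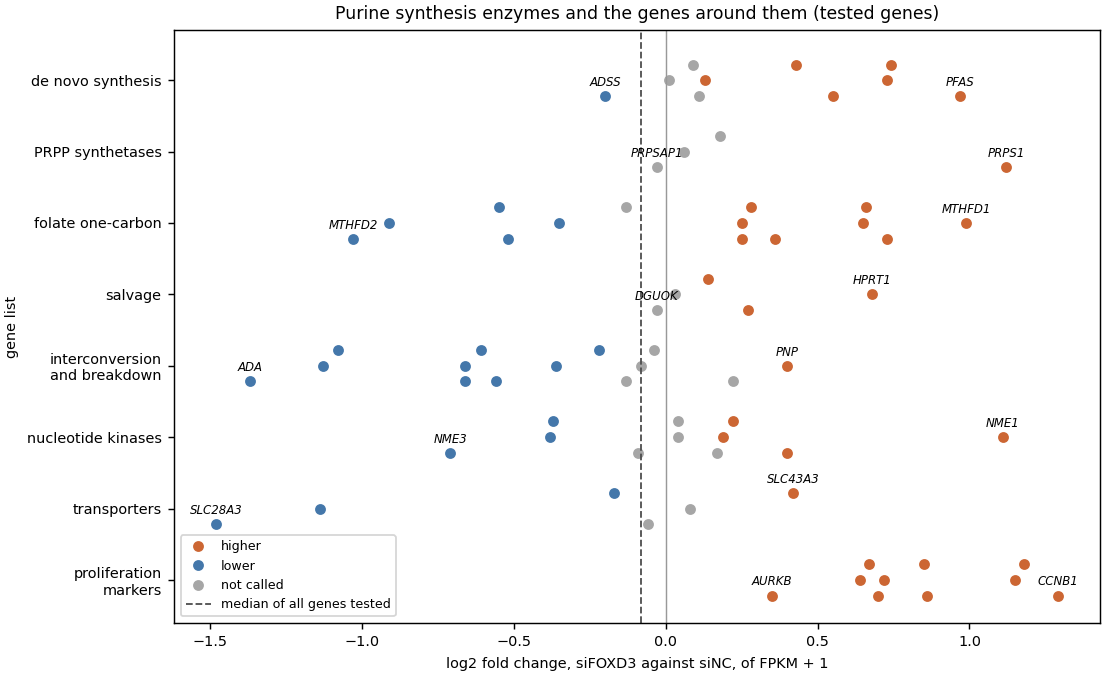
Log2 fold change of FPKM + 1 in siFOXD3 against siNC (horizontal axis) of every tested gene in the de novo list and 7 lists around it, with genes called higher in orange, called lower in blue and not called in grey, and the lowest and highest gene of each list named. The interconversion and breakdown list lies mostly to the left, down to ADA at -1.37, and the proliferation markers lie wholly to the right.

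Salvage recovers bases and nucleosides in place of new synthesis. Of 5 genes tested, 3 were called higher and none lower, beside 27.2% and 38.7% of all genes, with a median of 0.14. The groups did not overlap for 2 of the 5, beside 70.7% of all genes. HPRT1, which returns hypoxanthine and guanine to IMP and GMP, was at 50.4, 54.8 and 48.8 FPKM in siNC and at 74.6, 85.7 and 88.5 FPKM in siFOXD3 (log2 fold change 0.68, limma, Benjamini-Hochberg adjusted p = 1.59e-05). The adenine-recovering APRT (0.27, adjusted p = 0.00483) and adenosine kinase ADK (0.14, adjusted p = 0.0359) rose less, and the ADK groups overlapped. The ADK call was lost, leaving 2 salvage genes called, with no filter, with quantile normalization, without trend and robust, and without siNC replicate 2 or 3 or siFOXD3 replicate 2 or 3.

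Of 14 tested genes of 18 for interconversion and breakdown, 9 were called lower and 1 higher, beside 38.7% and 27.2% of all genes, with a median of -0.46. The 9 include GMPR, named after its values were seen, which passed the filter only through siNC, so a call of it could only be lower. With 1 FPKM asked of all 6 libraries, 7 were called lower. ADA, which deaminates adenosine, was at 19.9, 17.7 and 18.3 FPKM in siNC and at 6.43, 5.89 and 7.42 FPKM in siFOXD3 (log2 fold change -1.37, limma, Benjamini-Hochberg adjusted p = 5.53e-07). NT5E (CD73), which makes adenosine from AMP outside the cell, was at 76.2, 72.7 and 69.8 FPKM in siNC and at 35.3, 32.8 and 33.8 FPKM in siFOXD3 (-1.08). In both genes the siFOXD3 libraries lay far below siNC.

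Xanthine dehydrogenase XDH, the last step to uric acid, fell from 5.65 ± 0.309 to 3.20 ± 0.144 FPKM (-0.66). The mitochondrial nucleotidase NT5M, which is known mainly for pyrimidine deoxynucleotides, fell from 3.67 ± 0.256 to 1.14 ± 0.227 FPKM (-1.13). Named after their values were seen, the GMP reductase GMPR2 (-0.56) and the guanine deaminase GDA (-0.66) fell too, and PNP, which splits inosine and guanosine, was the gene called higher (0.40), a count that was 2 without siNC replicate 1.

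Of 11 tested kinases that carry AMP and GMP to the di- and triphosphates, 4 were called higher and 3 lower, with a median of 0.04. Beside the 27.2% and 38.7% of all genes called in these directions, this count is not a result about the kinases. NME1, a nucleoside diphosphate kinase, was at 136, 118 and 105 FPKM in siNC and at 253, 268 and 251 FPKM in siFOXD3 (1.11). The adenylate kinase AK4 rose (0.40), and NME3 (-0.71) and NME7 (-0.38) fell. NME1 and its neighbour NME2 are similar in sequence and could share reads, and the split of reads between them was not examined. Of 6 tested nucleoside and nucleobase transporters, 3 were called lower and 1 higher, beside 38.7% and 27.2% of all genes. SLC28A3 and SLC29A4 passed the filter only through siNC, so a call of either could only be lower. With 1 FPKM asked of all 6 libraries, 1 was called lower. SLC28A3, a concentrative nucleoside carrier, was at 4.04, 2.36 and 3.48 FPKM in siNC and at 0.709, 0.302 and 0.555 FPKM in siFOXD3 (-1.48), SLC29A4 (-1.14) and SLC29A1 (-0.17) fell, and the purine nucleobase carrier SLC43A3 rose (0.42). The SLC29A1 call was lost with median-of-ratios scaling and without siNC replicate 3 or siFOXD3 replicate 3.

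All 10 proliferation markers were called higher (27.2% of all genes were), with a median of 0.78 and a summed level of 586 to 607 FPKM in siNC and 1037 to 1050 FPKM in siFOXD3, and CCNB1 (1.29), MKI67 (1.18), BIRC5 (1.15) and CCNA2 (0.86) rose most. Their part in the change of the purine enzymes was not tested.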

How the data were processed

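Per the file headers, the authors deposited FPKM values with gene symbols, some of them on several rows. TopHat, Cufflinks and build hg19 are named per the submitters' processing notes; no source used here gives versions, annotation or strand handling. Rows of one symbol were summed and absent symbols set to 0. Tests used limma 3.58.1 in R 4.3.3 (lmFit, eBayes with trend and robust) on log2(FPKM + 1), which understates changes of low genes, with the group as the only term, for 12555 genes at 1 FPKM or more in at least 3 of the 6 libraries. P-values were adjusted by Benjamini-Hochberg over all of them. Ratios were compared by exact permutation over libraries.

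Depth was estimated from low values of 985 genes with 1 transcript in GENCODE 29, assuming fragments of 150 bases; fragments per gene use the principal transcript's length and are rough. Counting SDs cover counting error only. The fit was tested on simulated data.

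The members and lists were chosen with earlier results of these data known. Named were all members, FOXD3, SON, ADSSL1 and the called genes with up to 4 largest changes of each list, besides those marked in the text. Alternatives were the pseudocount (0.1, 5), the filter, quantile and median-of-ratios scaling, the variance model, a replicate block, each library left out, and a test against a fold of 1.2, the last chosen after seeing the data.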

Additional observations from a re-analysis of the deposited data

How the results depend on the processing

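Calls of PPAT, PFAS, PAICS, ADSL and IMPDH1 held under all 15 alternatives, with adjusted p up to 0.0497 (ADSL, test against a fold of 1.2), and between 5 and 8 enzymes were called higher. The share of all genes called higher moved too. With median-of-ratios scaling 8 enzymes were called higher, beside 4416 of 12555 genes (3415 as deposited). Against a fold of 1.2 it was 5 enzymes, beside 12.9% of all genes. The enzyme called lower, ADSS, was no longer called (0 enzymes lower) with median-of-ratios scaling or against a fold of 1.2. Against that fold 4297 genes were called, 1621 higher and 2676 lower; leaving out a library gave 7461 to 8394. Of the calls, 41.3% were higher as deposited, 51.9% with quantile normalization and 52.9% with median-of-ratios scaling, both of which moved the all-gene median from -0.08 to 0.02. GART turned to -0.05 with quantile normalization (adjusted p = 0.458; 0.841 as deposited) and lay between -0.02 and 0.04 with a library left out, ATIC turned to -0.01 with quantile normalization (adjusted p = 0.889), and the PAICS/PPAT difference turned to 0.01 on FPKM + 1 and ran from -0.18 to 0.09 with a library left out (0.09 without siNC replicate 1). ATIC was called without siNC replicate 1 (0.14, adjusted p = 0.00837), and IMPDH2 was not called without trend and robust (adjusted p = 0.0747). Against a fold of 1.2, 12.9% of all genes were called higher and 21.3% lower. There the folate list had 4 genes higher and 3 lower (8 and 5 otherwise), and salvage 1 higher (3). Breakdown had 0 higher and 6 lower (1 and 9), and the kinases 1 higher and 1 lower (4 and 3). With median-of-ratios scaling, breakdown and the transporters each had 2 genes higher (1), beside 4416 of all 12555 genes. With 1 FPKM asked of all 6 libraries the transporters had 1 lower (3), breakdown 7 (9) and the folate list 4 (5). In that setting 4218 of 11475 genes were called lower. The cause of these changes was not tested.

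With the replicate number as a block, 6 enzymes were called higher and 1 lower, 2 salvage genes were called higher (3 without it, as ADK was lost), and 8172 genes were called, as against 8278. The samples share only a number: deviations of same-numbered libraries correlated at 0.061, 0.163 and 0.115 across genes, each library most with its own number, which is a hint from the data and not the design. Counting noise limits PPAT and PFAS most, at an estimated 188 to 254 fragments per siNC library.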
